A study of Homo sapiens with 6 samples.

Results

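The metalloproteinases of the metzincin clan and their inhibitors were examined in ARPE-19, a line of human pigment epithelium from the retina, after treatment with cinobufagin or with its vehicle. Members were all genes of the deposited expression table whose symbol belongs to the MMP, ADAM or ADAMTS families, together with the inhibitors TIMP1, TIMP2 and RECK. The rule used names and no measured value, and it found 59 of the 17945 genes: 20 MMP, 18 ADAM, 18 ADAMTS and 3 inhibitor genes. The treated group held 3 libraries of cells exposed to cinobufagin at 320 nM for 24 h, and the control group held 3 libraries of cells kept in DMSO for 24 h. Both groups were of 1 cell line labelled wild type, and the medium held fetal bovine serum. Cinobufagin is a steroid of toad venom that inhibits the sodium pump. Nothing in the labels ties the libraries of one group to separate cultures. All p-values therefore measure the spread between these 6 samples alone, and that spread may be technical.

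Matrix metalloproteinases (MMPs) are zinc endopeptidases that cut collagens, laminins and other matrix proteins. Most are secreted as inactive zymogens, and the membrane-type MMPs are held at the cell surface. ADAMs are membrane proteins, and those with a complete catalytic site release the outer parts of growth factors, receptors and adhesion molecules from the cell surface. ADAMTS proteases are secreted, carry thrombospondin-type repeats and act on proteoglycans, procollagens and other matrix proteins. TIMPs bind the active site of these enzymes, and RECK is a membrane-anchored inhibitor of several MMPs. In the eye, the retinal pigment epithelium rests on Bruch's membrane, whose turnover depends on these proteases, and it deposits TIMP3 there.

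Expression was given as FPKM, fragment numbers per length of transcript and per library size. Summed FPKM ranged from 534694 to 545499 in the cinobufagin libraries and from 538039 to 560721 in the DMSO libraries, and no library stood apart from its group. Read totals were not among the sources used here. Pearson's r over 11599 tested genes (genes are not independent replicates) was 0.962 to 0.963 between groups and 0.996 to 0.997 within them. Markers of the pigment epithelium were present in part. Of 12 such genes, 8 were tested, of which MITF, OTX2 and RDH5 were called higher, PMEL and SERPINF1 lower, and 3 did not pass by the test given below. The transcription factor genes MITF and OTX2 averaged 56.3 and 74.5 FPKM in cinobufagin libraries and 45.1 and 48.5 FPKM in DMSO libraries. The secreted factor gene SERPINF1 and the melanosome gene PMEL averaged 3.62 and 1.38 FPKM in cinobufagin libraries and 5.15 and 2.04 FPKM in DMSO libraries. SERPINF1 lost its call without DMSO replicate 2 and when genes were not filtered by level. TTR was listed at 0 and RPE65 and RLBP1 were at or below 0.26 FPKM in every library. Of 12 markers of other cell types, 11 were used and CDH5 was not analysed here. PTPRC and SNAP25 were listed at 0 in all 6 libraries. The summed level of the 11 was 79.5 to 80.6 FPKM in cinobufagin and 113 to 127 FPKM in DMSO libraries, nearly all of it the lysosomal gene CD68, and without CD68 it was 0.44 to 0.76 and 0.22 to 0.66 FPKM. The mesenchymal marker list, which VIM dominates, summed to 3593 to 3654 FPKM in cinobufagin and 5061 to 5262 FPKM in DMSO libraries, although its member CDH2 was higher, with 135 FPKM in cinobufagin and 95.5 FPKM in DMSO libraries. The simple epithelial list, nearly all KRT8 and KRT18, was also lower, with sums of 543 to 552 FPKM in cinobufagin and 751 to 824 FPKM in DMSO libraries. The part of these marker lists in the results was not tested. In bulk samples, fewer cells of a type and less RNA per cell cannot be told apart.

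A gene was tested if at least 3 of the 6 libraries held 1 FPKM or more. Of the 59 members, 28 were tested, of which 8 were MMP, 9 ADAM, 8 ADAMTS and 3 inhibitor genes. The other 31 stayed at or below 0.86 FPKM in every library, and 5 of them were listed at 0 throughout. The test was limma with the mean-variance trend on log2(FPKM + 1), with p-values adjusted by Benjamini-Hochberg over all 11599 genes, and a gene is called higher or lower where the adjusted p was under 0.05. The log2 differences below are cinobufagin minus DMSO on this scale, on which changes of genes with low FPKM come out too small.

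The membrane-type protease gene MMP14 dominated the MMP family, ADAM9 and ADAM15 dominated the ADAMs, and TIMP2 was the most abundant member of all. In cinobufagin-treated cells most tested ADAMTS genes were lower, MMP2, MMP15, MMP24 and MMP11 were lower, and MMP14 and RECK were higher. Of the 28 members tested, 7 rose, 13 fell and 8 did not pass. That is 71.4% called, close to the 67.7% of all genes tested that were called in this comparison. By direction, 25.0% of the members rose against 39.2% of all genes tested, and 46.4% fell against 28.4%. The median log2 fold change was -0.14 over the members and 0.06 over all genes tested, and the median size was 0.26 in both. The groups did not overlap for 21 of the 28 members, 7 with cinobufagin above and 14 below, where 70.8% of all genes tested did not overlap, 41.2% above and 29.6% below. ADAMTS5 alone among the members was lower by a log2 difference of 1 or more, as were 3.34% of all genes tested. ADAMTS5 and ADAMTS9, both among the 13 that fell, passed the filter only through their DMSO libraries, which fixed their direction.

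**Figure D1:**
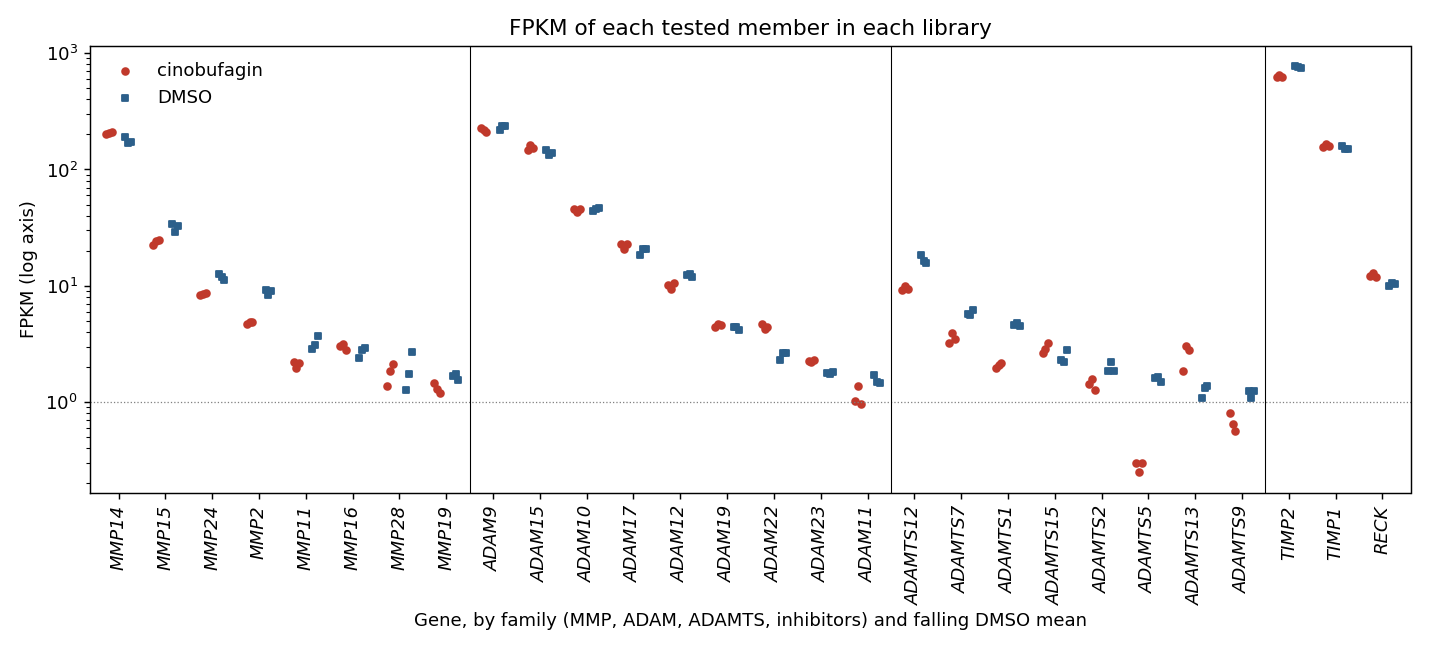
FPKM (log axis) of the 28 tested members in each library, cinobufagin as red circles left of DMSO as blue squares, ordered by family and by falling DMSO mean. The dotted line marks 1 FPKM; ADAMTS5 and ADAMTS9 lie below it in all 3 cinobufagin libraries and above it in all 3 DMSO libraries.

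The calls were also counted by family. For comparison, 39.2% of all genes tested rose, 28.4% fell and 67.7% were called in either direction. Among the 8 tested ADAMTS genes, 6 fell, 1 rose and 1 did not pass, with a median log2 fold change of -0.49. Among the 8 MMP genes, 1 rose, 4 fell and 3 did not pass, with a median of -0.30. Among the 9 ADAM genes, 4 rose, 2 fell and 3 did not pass, with a median of 0.06, equal to 2 decimals to that of all genes tested. ADAMTS5 and ADAMTS9 were tested only because of their DMSO values, so they had to be lower in cinobufagin. With a filter on the mean over the 6 libraries, chosen after seeing the data, which leaves both genes out, 4 ADAMTS genes and 11 members in all fell, and the ADAMTS median was -0.43. The difference between families was not tested. The summed level of the ADAMTS family was 23.2, 26.1 and 25.5 FPKM in cinobufagin libraries and 38.4, 37.1 and 37.3 FPKM in DMSO libraries. The summed ADAM level averaged 463 ± 7.23 FPKM in cinobufagin and 460 ± 8.02 FPKM in DMSO libraries, and the summed MMP level 252 ± 6.11 and 241 ± 14.2 FPKM (SD, n = 3 each). The group ranges of these sums were separate for the ADAMTS family and overlapped for the ADAMs and MMPs.

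**Figure D2:**
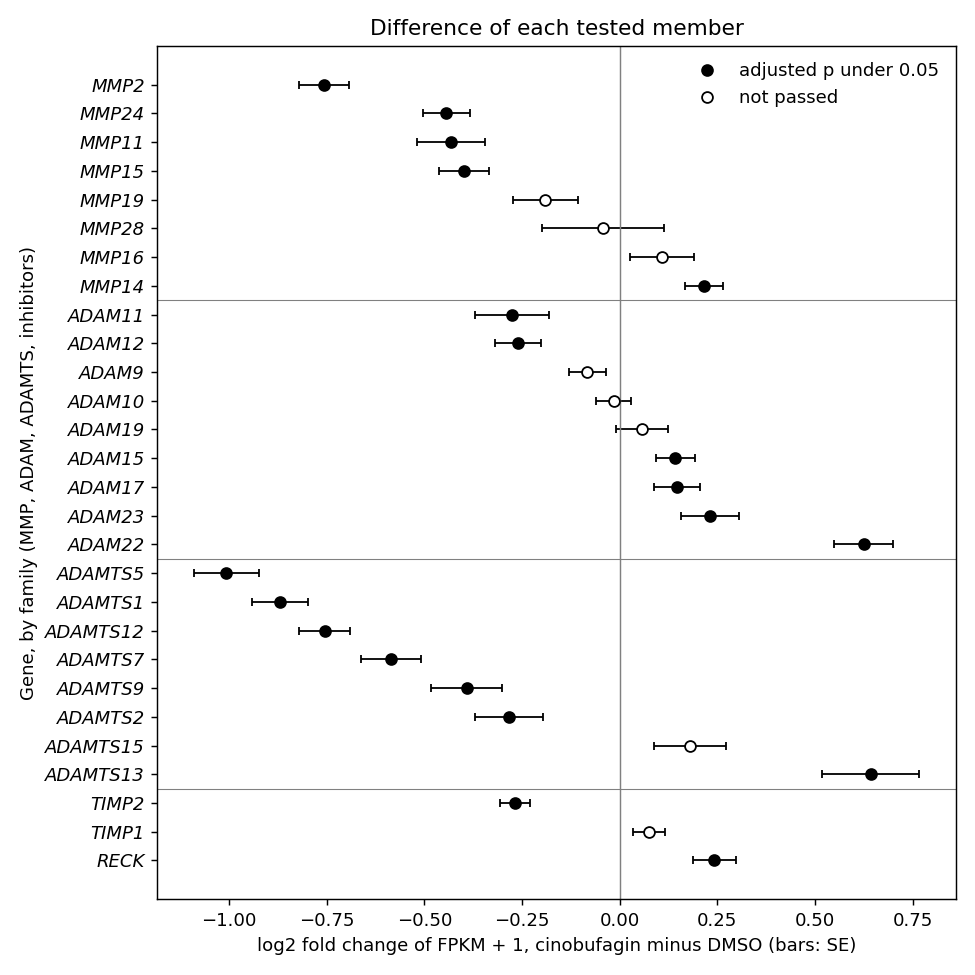
Log2 fold change of FPKM + 1, cinobufagin minus DMSO, with its standard error, for the 28 tested members, sorted within the MMP, ADAM, ADAMTS and inhibitor groups from top to bottom. Filled points passed an adjusted p of 0.05 and open points did not; the ADAMTS genes reach from -1.01 for ADAMTS5 to 0.64 for ADAMTS13, and 8 of the 9 ADAMs lie between -0.28 and 0.23.

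Among the ADAMTS genes, the pair ADAMTS12 and ADAMTS7 stood highest in DMSO cells and both fell. They encode proteases that cleave cartilage oligomeric matrix protein, whose own gene, COMP, was listed at 0 in every library. ADAMTS12 (chromosome 5, 33523535 to 33892192 on GRCh38, minus strand) had 9.18, 9.97 and 9.36 FPKM in cinobufagin libraries and 18.4, 16.2 and 15.7 FPKM in DMSO libraries. The groups lay well apart, with a level 1.76-fold lower after cinobufagin (log2 difference -0.76, SE 0.07, limma adjusted p = 1.24e-06). ADAMTS7 (chromosome 15, 78759203 to 78811431, minus strand) had 3.22, 3.91 and 3.50 FPKM in cinobufagin and 5.70, 5.57 and 6.15 FPKM in DMSO libraries, again without overlap (log2 difference -0.59, SE 0.08, limma adjusted p = 3.49e-05). ADAMTS7 overlaps the abundant MORF4L1 on the other strand, which averaged 217 ± 15.3 and 219 ± 9.18 FPKM (SD, n = 3 each) and did not pass.

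Of the 4 tested ADAMTS genes that cleave proteoglycans, ADAMTS1, ADAMTS5 and ADAMTS9 were lower, but ADAMTS5 and ADAMTS9 passed the filter only through their DMSO libraries, which fixed their direction. Without them 1 of 2 was lower, where 28.4% of all genes tested were. ADAMTS1 and ADAMTS5, enzymes that cut versican and aggrecan, are neighbours on the minus strand of chromosome 21, at 26835747 to 26845409 and 26917912 to 26966513, with 72502 bases between them. ADAMTS1 had 1.97, 2.09 and 2.19 FPKM in cinobufagin and 4.58, 4.82 and 4.51 FPKM in DMSO libraries, a 2.23-fold lower level (log2 difference -0.87, SE 0.07, limma adjusted p = 7.39e-07). ADAMTS5 had 0.30, 0.25 and 0.30 FPKM in cinobufagin and 1.61, 1.63 and 1.5 FPKM in DMSO libraries. The ratio of its mean FPKM was 5.58-fold, larger than for any other tested member, while the log2 fold change with a pseudocount of 1 was -1.01 (SE 0.08, limma adjusted p = 8.19e-07) and with a pseudocount of 0.1 was -2.13. ADAMTS9, a related proteoglycanase, averaged 0.673 ± 0.117 FPKM in cinobufagin and 1.19 ± 0.0981 FPKM in DMSO libraries (SD, n = 3 each; log2 difference -0.39, or -0.75 with a pseudocount of 0.1; limma adjusted p = 0.00234). ADAMTS15, another of this group, did not pass, with 2.62, 2.85 and 3.22 FPKM in cinobufagin and 2.31, 2.21 and 2.81 FPKM in DMSO libraries (limma adjusted p = 0.10). Its groups overlapped, and without DMSO replicate 3 it was called higher (log2 difference 0.25, limma adjusted p = 0.0339). ADAMTS4, ADAMTS8 and ADAMTS20 were at or below 0.05 FPKM everywhere. The remaining ADAMTS genes under the filter reached 0.86 FPKM at most, the value of ADAMTS3, a procollagen N-proteinase, in cinobufagin replicate 3.

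ADAMTS2, the procollagen N-proteinase of collagen I, averaged 1.43 ± 0.150 FPKM in cinobufagin and 1.96 ± 0.214 FPKM in DMSO libraries (SD, n = 3 each; log2 difference -0.28, SE 0.09, limma adjusted p = 0.0133). With a pseudocount of 0.1 the difference was -0.43, and the call was lost without cinobufagin replicate 3 (limma adjusted p = 0.0574) and without DMSO replicate 2 (limma adjusted p = 0.063). ADAMTS13, which cleaves von Willebrand factor, was the ADAMTS gene that rose. It had 1.84, 3.02 and 2.83 FPKM in cinobufagin and 1.08, 1.33 and 1.37 FPKM in DMSO libraries, so cinobufagin replicate 1 stood closest to the controls (log2 difference 0.64, SE 0.12, limma adjusted p = 0.000661). ADAMTS13 overlaps REXO4 on the other strand, which also rose, with 25.7 ± 1.24 FPKM in cinobufagin and 19.5 ± 0.570 FPKM in DMSO libraries (SD, n = 3 each; limma adjusted p = 4.54e-05), and no source used here gives the strand setting. Where exons of such a pair overlap, reads from them cannot be told apart without strand. Only whole gene intervals were compared here, and overlap of exons was not examined.

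**Figure D3:**
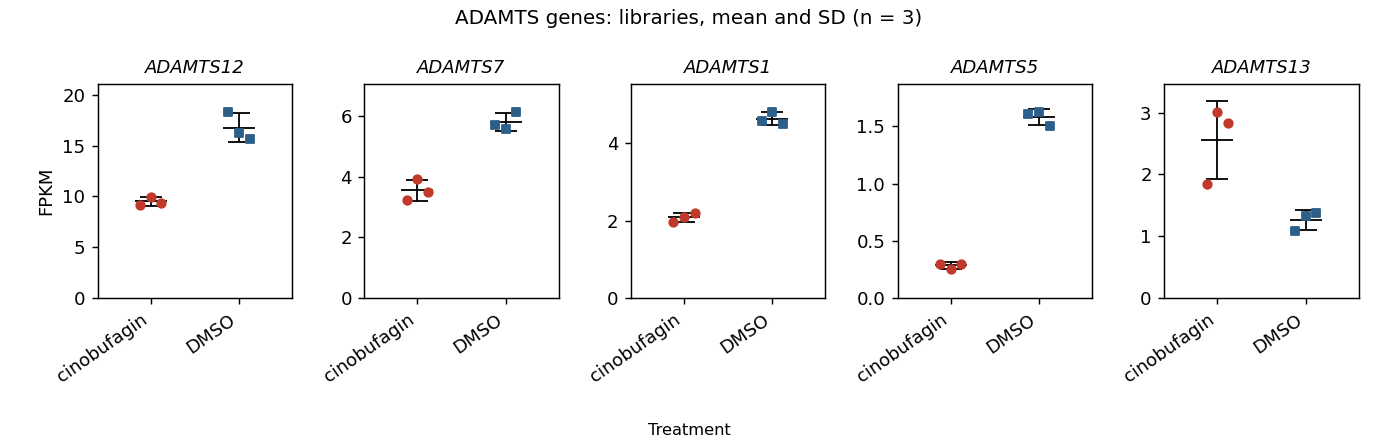
FPKM of ADAMTS12, ADAMTS7, ADAMTS1, ADAMTS5 and ADAMTS13 in each library (points), with the mean and SD of 3 libraries (lines), cinobufagin left and DMSO right, each panel on its own axis from 0. In the other 4 panels all cinobufagin points lie below all DMSO points, and in the ADAMTS13 panel they lie above them.

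Within the MMP family, MMP14 (chromosome 14, 22836557 to 22849027, plus strand), a membrane-type MMP that cuts collagen and activates the zymogen of MMP2, had 202, 205 and 212 FPKM in cinobufagin and 191, 169 and 173 FPKM in DMSO libraries. The cinobufagin values all lay above the DMSO values by a small margin (log2 difference 0.22, SE 0.05, limma adjusted p = 0.00189). MMP14 made up 81.5% to 81.9% of the summed MMP level in cinobufagin and 72.8% to 74.6% in DMSO libraries. Its substrate MMP2, gelatinase A (chromosome 16, 55389700 to 55506691, plus strand), moved the other way, with 4.69, 4.92 and 4.85 FPKM in cinobufagin and 9.17, 8.31 and 9.04 FPKM in DMSO libraries. This 1.83-fold lower level was the largest difference among the tested MMPs (log2 difference -0.76, SE 0.06, limma adjusted p = 9.35e-07).

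The other membrane-type genes were lower or did not pass. MMP15 had 22.4, 24.1 and 25.0 FPKM in cinobufagin and 34.0, 28.9 and 32.4 FPKM in DMSO libraries (log2 difference -0.40, SE 0.06, limma adjusted p = 0.000155). MMP24, which can cleave N-cadherin, had 8.35, 8.58 and 8.64 FPKM in cinobufagin and 12.8, 11.9 and 11.3 FPKM in DMSO libraries (log2 difference -0.44, SE 0.06, limma adjusted p = 4.81e-05). Neither gene's groups overlapped, and MMP24OS, which overlaps MMP24 on the other strand, also fell (log2 difference -0.25, limma adjusted p = 0.000925). MMP16 had 3.04, 3.16 and 2.79 FPKM in cinobufagin and 2.41, 2.79 and 2.93 FPKM in DMSO libraries, overlapping groups that did not pass (limma adjusted p = 0.254). MMP17 and MMP25 were not tested, with at most 0.28 FPKM.

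MMP11, or stromelysin 3, whose zymogen furin can activate, averaged 2.12 ± 0.133 FPKM in cinobufagin and 3.22 ± 0.422 FPKM in DMSO libraries (SD, n = 3 each; log2 difference -0.43, SE 0.09, limma adjusted p = 0.000964). It overlaps CHCHD10 on the other strand, which also fell (log2 difference -0.65, limma adjusted p = 8.42e-05). MMP19 averaged 1.32 ± 0.127 FPKM in cinobufagin and 1.65 ± 0.0917 FPKM in DMSO libraries and missed the threshold (limma adjusted p = 0.0588), which it passed without cinobufagin replicate 1 (limma adjusted p = 0.0434). MMP28, or epilysin, averaged 1.78 ± 0.376 FPKM in cinobufagin and 1.90 ± 0.719 FPKM in DMSO libraries (SD, n = 3 each; limma adjusted p = 0.817). Its difference was -0.04 with all libraries, 0.07 without cinobufagin replicate 1 and 0.14 without DMSO replicate 3.

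The interstitial collagenases, matrilysin and the stromelysins other than MMP11 were near 0. On the minus strand of chromosome 11, 7 MMP genes lie in a cluster of 435 kb (102520508 to 102955734): MMP7, MMP27, MMP8, MMP10, MMP1, MMP3 and MMP13. The highest value of any of them in any library was 0.30 FPKM, of MMP3 in DMSO replicate 2, and 3 of the 7, MMP8, MMP13 and MMP27, were listed at 0 in all 6 libraries. MMP9, gelatinase B, reached 0.06 FPKM at most. No direction was drawn for these genes, since they were under the filter.

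Promoter sequence was taken from RefSeq (GRCh38.p14) for 35 of the 59 member genes, 17 of them among the 28 tested. The other members were not searched. The letters TGANTCA are a loose pattern, with any middle base, for the site that AP-1 dimers of the JUN and FOS families bind. They read the same on both strands and were searched in the 250 bases before the start. They were present in 3 of the 36 promoters of these 35 genes (8.33%) and in 6.57% of all 35116 promoters. The ETS core GGAA, searched on both strands as GGAA and TTCC, was in 94.4% and 92.7%. The 3 promoters with TGANTCA belong to ADAMTS12, the most abundant ADAMTS gene, and to MMP7 and MMP10 of the chromosome 11 cluster. They are shown with those of ADAMTS7 and MMP14, which hold no match in the 250 bases, as the 120 bases before the start, 5′ to 3′ on the gene's strand, with the match in capitals. The windows are chr5:33891991-33892110 (minus) for ADAMTS12, chr11:102530748-102530867 (minus) for MMP7, chr11:102780629-102780748 (minus) for MMP10, chr15:78811465-78811584 (minus) for ADAMTS7 and chr14:22836465-22836584 (plus) for MMP14.
ADAMTS12: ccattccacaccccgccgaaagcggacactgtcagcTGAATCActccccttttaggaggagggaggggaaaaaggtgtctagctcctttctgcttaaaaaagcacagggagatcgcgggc
MMP7: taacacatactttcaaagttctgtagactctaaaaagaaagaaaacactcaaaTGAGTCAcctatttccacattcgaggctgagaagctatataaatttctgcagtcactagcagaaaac
MMP10: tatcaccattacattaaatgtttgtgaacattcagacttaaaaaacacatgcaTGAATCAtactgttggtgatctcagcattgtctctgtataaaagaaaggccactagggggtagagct
ADAMTS7: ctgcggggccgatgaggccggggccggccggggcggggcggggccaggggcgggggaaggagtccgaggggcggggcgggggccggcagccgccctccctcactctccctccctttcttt
MMP14: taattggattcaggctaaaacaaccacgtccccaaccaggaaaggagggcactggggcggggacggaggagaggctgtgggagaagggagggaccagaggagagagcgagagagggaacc
Counted back from the RefSeq start, the match spans -84 to -78 in ADAMTS12 and -67 to -61 in both MMP7 and MMP10. For some genes this start differs from the gene interval given above, which came from GENCODE 29. The ADAMTS12 window lies inside that gene's interval, and the MMP14 window runs into its own. The match reads TGAATCA in ADAMTS12 and MMP10 and TGAGTCA in MMP7. A match is a run of letters and was not tested as a binding site.

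Among the ADAMs, the abundant surface proteases differed little between groups. ADAM9, whose loss causes a cone-rod dystrophy, averaged 218 ± 9.04 FPKM in cinobufagin and 231 ± 11.2 FPKM in DMSO libraries (SD, n = 3 each; limma adjusted p = 0.137), and it was called lower without DMSO replicate 1 (log2 difference -0.12, limma adjusted p = 0.0221). ADAM10, a protease of Notch and N-cadherin, averaged 44.9 ± 1.58 FPKM in cinobufagin and 45.4 ± 1.22 FPKM in DMSO libraries and did not pass (limma adjusted p = 0.778). Its difference of -0.01 was 0.01 without cinobufagin replicate 2. ADAM17, which releases TNF and ligands of the EGF receptor, had 22.9, 20.8 and 22.8 FPKM in cinobufagin and 18.6, 20.5 and 20.7 FPKM in DMSO libraries (log2 difference 0.15, SE 0.06, limma adjusted p = 0.0415). The lowest cinobufagin value lay just above the highest DMSO value, and the call was lost without cinobufagin replicate 1 (limma adjusted p = 0.129) or 3 (0.13) and without DMSO replicate 1 (0.129).

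ADAM15, a transmembrane protease that also binds integrins, had 148, 161 and 154 FPKM in cinobufagin and 148, 132 and 140 FPKM in DMSO libraries. The lowest cinobufagin and the highest DMSO values were nearly equal (log2 difference 0.14, SE 0.05, limma adjusted p = 0.0232), and the call was lost without cinobufagin replicate 2 (limma adjusted p = 0.103) or 3 (0.0584) and without DMSO replicate 2 (0.102). ADAM12, which cleaves binding proteins of insulin-like growth factors, had 10.2, 9.47 and 10.6 FPKM in cinobufagin and 12.3, 12.6 and 11.9 FPKM in DMSO libraries, without overlap (log2 difference -0.26, SE 0.06, limma adjusted p = 0.002). ADAM19, a protease of neuregulins, averaged 4.57 ± 0.120 FPKM in cinobufagin and 4.36 ± 0.155 FPKM in DMSO libraries and did not pass (limma adjusted p = 0.456). ADAM8, best known from leukocytes, was under the filter and not tested. Its values were 0.29, 0.35 and 0.33 FPKM in cinobufagin libraries and 0.02, 0.02 and 0.04 FPKM in DMSO libraries, so the groups did not overlap at this low level.

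The tested ADAMs that lack a working catalytic site averaged 1.12 to 4.45 FPKM in cinobufagin and 1.56 to 2.54 FPKM in DMSO libraries. These means lay below those of the tested ADAMs with a complete site, the lowest of which was ADAM19. Of the 3 that lack one, 2 rose and 1 fell, where 67.7% of all genes tested were called. ADAM22, a neuronal receptor of the LGI proteins, had 4.66, 4.29 and 4.41 FPKM in cinobufagin and 2.31, 2.67 and 2.64 FPKM in DMSO libraries, a clear gap and the largest difference among the tested ADAMs (log2 difference 0.62, SE 0.07, limma adjusted p = 1.66e-05). ADAM23, which also binds LGI proteins, had 2.27, 2.21 and 2.32 FPKM in cinobufagin and 1.79, 1.75 and 1.81 FPKM in DMSO libraries (log2 difference 0.23, SE 0.07, limma adjusted p = 0.0153). ADAM11 had 1.02, 1.37 and 0.97 FPKM in cinobufagin and 1.72, 1.49 and 1.47 FPKM in DMSO libraries (log2 difference -0.28, SE 0.10, limma adjusted p = 0.0228). With a pseudocount of 0.1 its difference was -0.46, and the call was lost without cinobufagin replicate 1 (limma adjusted p = 0.071) or 3 (0.0899) and without DMSO replicate 1 (0.0794). ADAM18, which also lacks a working site, and ADAM30, which has a complete one, were listed at 0 in all libraries.

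The inhibitors did not share a direction. TIMP2 (chromosome 17, 78852977 to 78925387, minus strand), which inhibits MMPs and also takes part in the activation of the MMP2 zymogen by MMP14, had 625, 645 and 623 FPKM in cinobufagin and 772, 755 and 751 FPKM in DMSO libraries (log2 difference -0.27, SE 0.04, limma adjusted p = 6.44e-05). TIMP1 had 157, 166 and 159 FPKM in cinobufagin and 158, 150 and 149 FPKM in DMSO libraries, overlapping groups that did not pass (log2 difference 0.08, limma adjusted p = 0.125), and it was called higher without DMSO replicate 1 (limma adjusted p = 0.035). RECK (chromosome 9, 36036433 to 36124451, plus strand) had 12.25, 12.84 and 11.97 FPKM in cinobufagin and 10.0, 10.5 and 10.4 FPKM in DMSO libraries, without overlap (log2 difference 0.24, SE 0.06, limma adjusted p = 0.00208). TIMP3, which stands outside the member rule and inhibits ADAM17 and ADAMTS proteases as well as MMPs, had 89.8, 90.2 and 91.5 FPKM in cinobufagin and 137, 136 and 137 FPKM in DMSO libraries (log2 difference -0.59, SE 0.04, limma adjusted p = 6.77e-08). Its mutations cause Sorsby fundus dystrophy, a disease of Bruch's membrane. TIMP1, TIMP2 and TIMP3 together summed to 872, 901 and 873 FPKM in cinobufagin and 1067, 1041 and 1038 FPKM in DMSO libraries. The ratio of MMP14 to TIMP2 was 0.324, 0.318 and 0.34 in cinobufagin and 0.247, 0.224 and 0.23 in DMSO libraries, so MMP14 stood higher against TIMP2 in every cinobufagin library. The ratio of MMP2 to TIMP2 was 0.0075 to 0.00779 in cinobufagin and 0.011 to 0.012 in DMSO libraries.

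**Figure D4:**
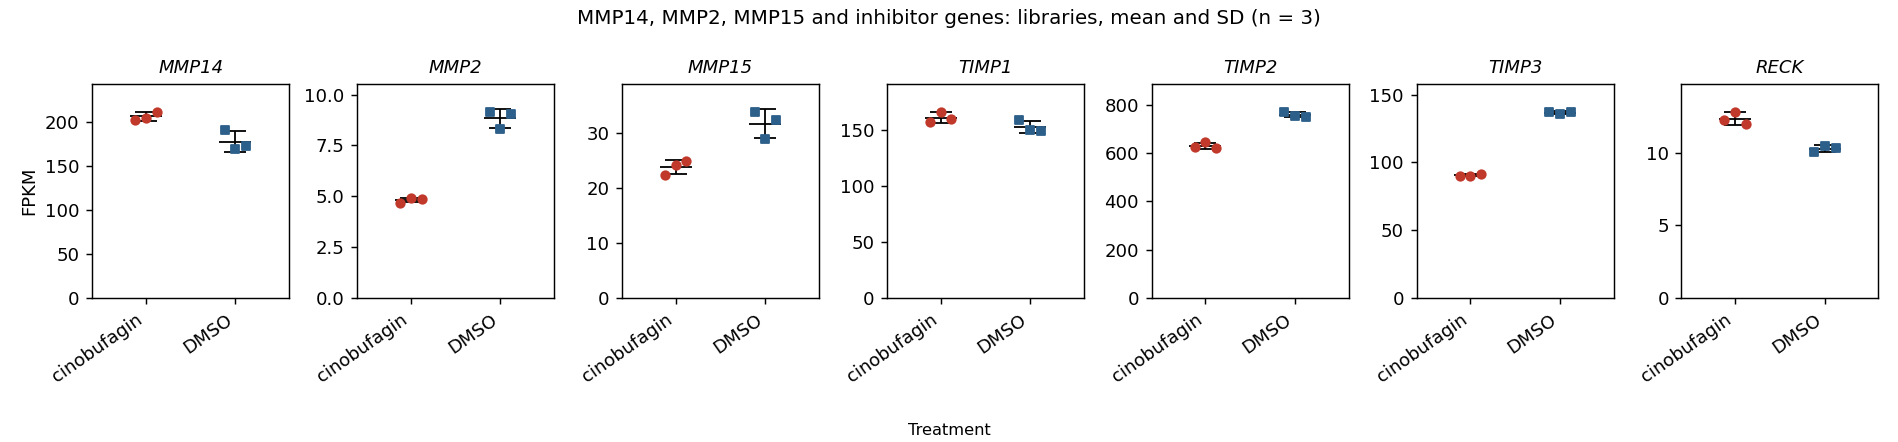
FPKM of MMP14, MMP2, MMP15, TIMP1, TIMP2, TIMP3 and RECK in each library (points), with the mean and SD of 3 libraries (lines), cinobufagin left and DMSO right, each panel on its own axis from 0. MMP14 and RECK are higher in all cinobufagin libraries, MMP2, MMP15, TIMP2 and TIMP3 are lower in all of them, and the TIMP1 groups overlap.

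Genes that activate or steer these proteases were counted in lists. Of 3 tested proprotein convertase genes, which remove the prodomain of membrane-type MMPs, ADAMs and ADAMTS proteases, 2 rose, 0 fell and 1 did not pass. FURIN had 36.5, 42.5 and 41.7 FPKM in cinobufagin and 28.9, 26.3 and 27.1 FPKM in DMSO libraries (log2 difference 0.53, limma adjusted p = 1.26e-05), and PCSK5 averaged 3.15 ± 0.0954 and 1.46 ± 0.0493 FPKM (SD, n = 3 each; log2 difference 0.76, limma adjusted p = 3.02e-06). Plasminogen activation is a route by which plasmin activates several MMP zymogens. The urokinase gene PLAU and its receptor PLAUR fell by 1.00 (PLAU) and fell by 1.08 (PLAUR) in log2 terms, the inhibitor SERPINE2 rose by 0.30 and the tissue activator gene PLAT did not pass (limma adjusted p = 0.494).

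Among 9 genes for partners of ADAM10 and ADAM17, 4 rose, 2 fell and 3 did not pass. The tetraspanins that carry ADAM10 to the surface moved in different directions. TSPAN5 had 27.5, 26.5 and 27.7 FPKM in cinobufagin and 12.64, 12.85 and 13.01 FPKM in DMSO libraries (log2 difference 1.03, limma adjusted p = 7.55e-09), whereas TSPAN10 had 42.8, 49.2 and 42.4 FPKM in cinobufagin and 122.91, 106.2 and 117.04 FPKM in DMSO libraries (log2 difference -1.35, limma adjusted p = 1.09e-08). TSPAN17 rose by 0.58 on the log2 scale. RHBDF2, an inactive rhomboid that ADAM17 needs for its maturation, fell by 0.23 (limma adjusted p = 0.0122), a call lost without cinobufagin replicate 1 (0.0568) and without DMSO replicate 3 (0.0527). Of 12 tested genes for substrates of ADAM10 and ADAM17, 4 rose, 5 fell and 3 did not pass. The hyaluronan receptor gene CD44 fell by 0.59, NOTCH1 fell by 0.51 and ICAM1 fell by 0.48 on the log2 scale, while the N-cadherin gene CDH2 rose by 0.50.

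The ADAMTS-like genes, which encode related matrix proteins without a protease domain, were lower in 3 of 5 cases tested, and 0 rose. ADAMTSL4 averaged 6.09 ± 0.643 FPKM in cinobufagin and 13.8 ± 0.484 FPKM in DMSO libraries (SD, n = 3 each; log2 difference -1.06, limma adjusted p = 1.61e-07), ADAMTSL5 fell by 0.67 and THSD4 fell by 0.55. The large aggregating proteoglycans that ADAMTS proteases cut were close to absent as transcripts: ACAN was listed at 0, VCAN was at or below 0.02 FPKM and BCAN at or below 0.24 FPKM. BGN, also on this list, was not analysed here. Of 5 tested matrix genes of this list, 1 rose, 3 fell and 1 did not pass. The fibrillin gene FBN2 fell by 0.70, the nidogen gene NID1 fell by 0.58 and the fibronectin gene FN1 fell by 0.36, while NID2 rose by 0.25 on the log2 scale. Of 6 tested genes for clearance and other regulators, 1 rose, 3 fell and 2 did not pass. TFPI2, a matrix-bound protease inhibitor, rose by 2.08, TIMP3 fell as described, the testican gene SPOCK1 fell by 0.39 and BSG, an inducer of MMPs, fell by 0.17 on the log2 scale. The BSG call was lost after quantile normalization (limma adjusted p = 0.0598).

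Of 11 tested genes for AP-1 and ETS factors, which bind MMP promoters, 4 rose, 6 fell and 1 did not pass. FOSL1 had 7.38, 6.77 and 6.73 FPKM in cinobufagin and 25.8, 24.4 and 25.5 FPKM in DMSO libraries (log2 difference -1.72, limma adjusted p = 5.02e-10). ETS1 averaged 18.2 ± 0.291 FPKM in cinobufagin and 35.3 ± 0.424 FPKM in DMSO libraries (SD, n = 3 each; log2 difference -0.92, limma adjusted p = 9.81e-09). JUNB rose by 0.92 and FOS by 0.88 on the log2 scale, or by 1.64 for FOS with a pseudocount of 0.1. FOS passed the filter only through its cinobufagin values, with 1.77 ± 0.0608 FPKM in cinobufagin and 0.507 ± 0.119 FPKM in DMSO libraries (SD, n = 3 each). Each of the lists counted here was called at 60.0% to 90.9%, where 67.7% of all genes tested were called.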

How the data were processed

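RNA sequencing was done on 3 cinobufagin and 3 DMSO libraries. The deposited values are FPKM per gene, made by the authors and given to 2 decimals, per the file headers. Bowtie2, RSEM 1.3.1, DESeq2 1.4.5 and the build GRCh38.p13 are named, per the submitters' processing notes, without a role for each. No source used here gives the strand setting or the read totals. The ratio of low values to those of DMSO replicate 1 had a median of 0.98 to 1 in every library. Only ratios near 1 were kept for this median, so it cannot show whether the libraries are alike. It does not give depth either, and no count model was used. Control columns are named mock and were taken as the DMSO libraries of the same number. Entries without a gene ID, 19 in all, were left out, and 17881 gene IDs had a symbol in RefSeq (GRCh38.p14). No pair of libraries was identical (0 pairs).

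Genes at 1 FPKM or more in 3 libraries or more were fitted with limma 3.58.1 (R 4.3.3) on log2(FPKM + 1) with the mean-variance trend and no block, two-sided, with Benjamini-Hochberg adjustment over all 11599 genes. SD is over 3 libraries in FPKM. The script was tested on simulated data. Figures used matplotlib 3.10.9. Positions and overlaps came from GENCODE 29 on GRCh38. Of 28 tested members, 10 overlap another coding gene there, 7 of them among the 20 called. Values in every library are given for called members whose higher mean was at least 5 FPKM, for the inhibitors, and for the largest changes of each family in each direction, and up to 4 called genes with the largest change are named per list. ADAM8 and the values of every library for list genes were chosen after their values were seen. Some list genes, and the count of the plasminogen activation list, are not reported here. Members, lists and tests were chosen with earlier results of these data known.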

Additional observations from a re-analysis of the deposited data

How the results depend on the processing

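ADAMTS5 and ADAMTS9 passed the filter of 1 FPKM only through their DMSO libraries, which fixed their direction. The filter of 5 FPKM and the filter on the mean tested neither gene. MMP2, MMP11, MMP14, MMP15, MMP24, ADAM12, ADAM22, ADAM23, ADAMTS1, ADAMTS5, ADAMTS7, ADAMTS9, ADAMTS12, ADAMTS13, RECK and TIMP2 kept their direction and call under every alternative that tested them. Of the other called members, ADAM17 lost the call in 8 of 14 alternatives and ADAM15 in 6 of 14. ADAM11 lost it in 5 of 13 and ADAMTS2 in 2 of 13. Both ADAM17 and ADAM15 lost it without the trend, after median centring and with no filter. With the replicate number as a block, ADAM17 also lost it (limma adjusted p = 0.064). The block changed no other member's call and gave 6 members higher and 13 lower, against 7 and 13. Same-numbered libraries did not deviate together (r = -0.049, -0.105 and -0.00906), so the numbers were not taken as pairs. With a filter of 5 FPKM, which tests fewer genes, 4 members rose and 7 fell, the ADAM counts were 2 higher and 1 lower, and the ADAMTS counts 0 and 2. The ADAM count higher was 2 instead of 4 without the trend and after median centring, and 2 to 4 when leaving out each library in turn; its count lower was 1 after quantile normalization and with no filter, and 1 to 2 leaving out libraries. After quantile normalization 2 ADAMTS and 2 inhibitor genes were higher, and leaving out libraries gave 1 to 2 for each. After median centring 5 members rose and 15 fell. ADAM9, ADAMTS15, MMP19 and TIMP1, not called, passed in at least one alternative. The cause was not tested.

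The MMP median (-0.295) was -0.266 after quantile normalization, -0.337 after median centring, -0.017 with no filter, -0.421 with the 5 FPKM filter and -0.356 with a pseudocount of 0.1. The ADAM median (0.057) was 0.015 after centring, 0.007 with no filter and reversed to -0.015 with the 5 FPKM filter. The ADAMTS median (-0.488) was -0.427 after quantile normalization, -0.021 with no filter, -0.67 with the 5 FPKM filter, -0.725 with a pseudocount of 0.1 and -0.434 with a filter on the mean, an alternative chosen after seeing the data. The inhibitor median (0.076) was 0.139 after quantile normalization. Leaving out each library in turn gave medians of -0.308 to -0.277 for the MMPs, 0.033 to 0.073 for the ADAMs, -0.52 to -0.461 for the ADAMTS genes and 0.051 to 0.103 for the inhibitors. Among differences that did not pass, these reversed: the ADAM10 log2 fold change to 0.0136 without cinobufagin replicate 2 (range over left-out libraries -0.0368 to 0.01356), and the MMP28 log2 fold change to 0.01277 after quantile normalization, 0.0675 without cinobufagin replicate 1 and 0.144 without DMSO replicate 3 (range -0.203 to 0.1443). FPKM carry no counts, so how far depth limits the low genes is unknown.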
